A study of Mus musculus with 51 samples.

Results

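RNA of Pparg guide cells was compared between day 2 and day 0 of fat cell differentiation, over all genes. The libraries were chosen by their labels alone. They comprise 5 libraries of the guide cells (P) at day 0 and 6 at day 2, together 11 of the 51 libraries of the series. All cells were C3H/10T1/2-SAM, an established line of mouse mesenchymal cells able to become fat cells. The SAM form carries dCas9-VP64, a Cas9 that cannot cut and is fused to a transcription activator, and MS2-P65-HSF1, a further activator that the guide RNA recruits. Every group carried both parts, the control group included. P cells received a plasmid with a guide for Pparg, empty vector cells (EV) received a plasmid with no guide, and PY cells received guides for Pparg and Ybx1. Each transfection used 250 ng of plasmid and was done 48 hours before day 0, and all cells were given 5 µM rosiglitazone, a PPARG agonist, from day 0. EV had 5 libraries at day 0 and 6 at day 2, and PY had 6 and 5. Time in culture, time since transfection, length of exposure to the drug and guide activity could change together between the days, and their parts cannot be told apart within P cells. The labels do not say whether day 0 RNA was taken before the drug was added. They also do not give the share of cells that took up the plasmid, so each value averages over cells with and without it.

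PPARG is a nuclear receptor that binds DNA together with an RXR partner and switches on most genes of the mature fat cell. C/EBPα, encoded by Cebpa, is induced alongside it and holds that state in place. Fat cells take up fatty acids, store them as triglyceride in droplets coated by perilipins, release them by lipolysis and burn part of them in mitochondria and peroxisomes. Foreign DNA, such as a transfected plasmid, can set off type I interferon in many cell types, and interferon then induces antiviral genes through a promoter element called ISRE. Preadipocytes of several kinds divide again early in differentiation before they fill with lipid.

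Total counts ran from 18.8 M to 114.6 M (mega, as in Mb) at day 0 and from 9.99 M to 55.5 M at day 2. The labels assign libraries to 6 experiments. P at day 0 came from experiments 1, 3, 4, 5 and 6 and P at day 2 from all 6, so 5 experiments hold both days and the day 2 library of experiment 2 has no partner. Libraries are named here by experiment number. Each library of a group came from a different experiment. The p-values measure the spread left after differences between experiments common to all groups are taken out. That spread was estimated over all 51 libraries, not over P alone. The mesenchymal collagens Col1a1 and Col1a2 stood at 1067 to 3799 and 2609 to 3472 CPM at day 0, where CPM is the read count scaled to the effective library size, and at 1137 to 3156 and 2632 to 4815 CPM at day 2. Summed over 18 macrophage markers the level was 20.6 to 62.3 CPM at day 0 and 12.2 to 18.3 CPM at day 2, and over 18 epithelial markers 6.92 to 11.1 and 3.97 to 15.9 CPM. The 16 endothelial markers summed to 96.9 to 158 and 71.2 to 116 CPM. None of these markers was at 0 in all 11 libraries.

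Pparg itself, the gene the guide is aimed at (ENSMUSG00000000440, GRCm38 chromosome 6, 115360951 to 115490399, plus strand), was already high at day 0 and did not pass the test for a change by day 2. It stood at 162, 128, 330, 321 and 266 CPM in experiments 1, 3, 4, 5 and 6 at day 0, and at 196, 233, 182, 351, 506 and 325 CPM in experiments 1 to 6 at day 2. The 2 days overlapped, although each of the 5 paired experiments was higher at day 2, by 1.07-fold to 1.58-fold. The fitted change was log2 0.33 ± 0.26 (SE, adjusted p = 0.36). EV libraries held 45.9 to 64.5 CPM at day 0 and 41.7 to 70.1 CPM at day 2, below every P library. Ybx1 stood at 707 ± 99.2 CPM at day 0 (SD, n = 5) and 708 ± 68.7 at day 2 (n = 6, adjusted p = 0.752).

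Between the 2 days, 4866 of the 17015 genes tested (28.6%) passed edgeR's quasi-likelihood test with the experiment as a block, at a threshold of 0.05 on p-values adjusted by Benjamini and Hochberg. Of these, 2368 (13.9%) were higher and 2498 (14.7%) lower at day 2. The rises were larger: 716 genes rose and 472 fell at least 2-fold, and 278 rose and 98 fell at least 4-fold. In all 5 paired experiments 1805 of the genes that rose and 1790 of those that fell kept their direction. The libraries of the 2 days did not overlap for 1118 genes (6.57%). Without the experiment block 1190 genes were higher (6.99%) and 1187 lower (6.98%), and all of these also passed with it. Without experiment 5 the count was 2880. The median log2 change over all genes tested was 0.0029. In the plot of change against level, the fat cell genes Plin1, Adipoq, Fabp4 and Acsl1 stand far above the rest at high abundance, and the antiviral gene Ifit1 far below.

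**Figure D1:**
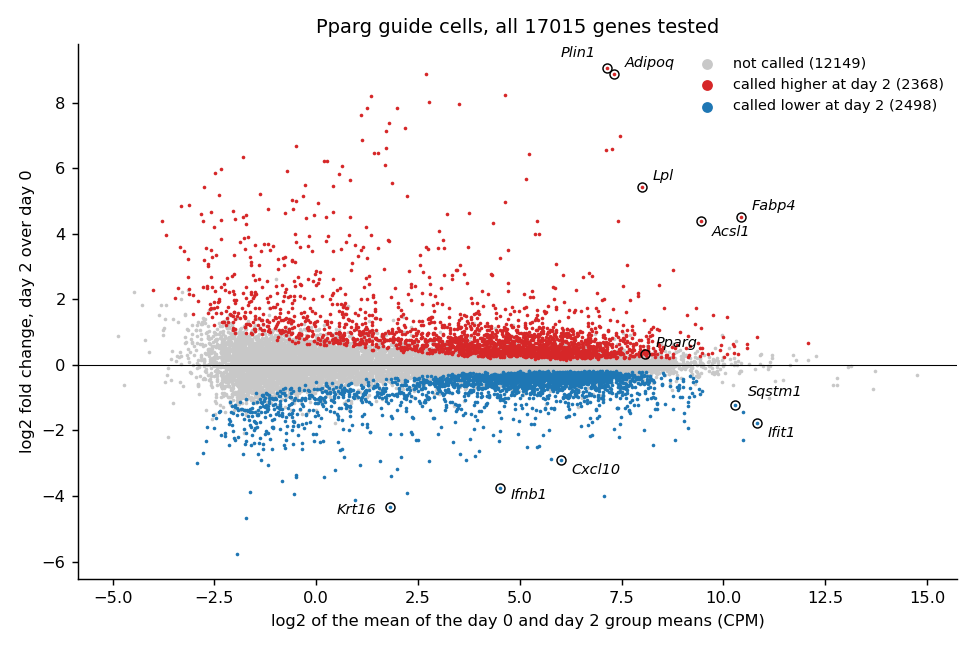
Each point is 1 of the 17015 genes tested in P cells, with the log2 of its mean level in CPM on the x axis and its fitted log2 fold change of day 2 over day 0 on the y axis. Red marks the 2368 genes that passed higher and blue the 2498 that passed lower, and circled genes are named in the text. Pparg lies close to 0, at 0.33.

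Fat cell gene lists rose as groups in P. Of 19 tested genes of lipolysis and its adrenergic control 16 rose and 0 fell, with a median log2 change of 2.41. Of 23 genes of fatty acid and triglyceride synthesis 14 rose and 0 fell (median 0.93), of 17 for fatty acid uptake and binding 8 rose and 1 fell (0.26), of 17 lipid droplet proteins 9 rose and 2 fell (0.45), and of 15 adipokines 7 rose and 1 fell (0.90). Over all genes the shares were 13.9% higher and 14.7% lower. EV passed fewer of these members as higher, 1 of 19 for lipolysis, 4 of 23 for synthesis, 4 of 17 for uptake, 1 of 17 for droplet proteins and 4 of 15 for adipokines, where 10.2% of all genes passed as higher and 11.8% as lower. The EV medians were 0.38, 0.19, 0.48, 0.28 and 0.18 in the same order of lists. For fatty acid uptake and binding the EV median was thus above that of P. Whether the change itself differed between P and EV is a separate test, given further on. A rise in bulk RNA can mean more fat cells or more RNA per fat cell, and these cannot be told apart here.

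**Figure D2:**
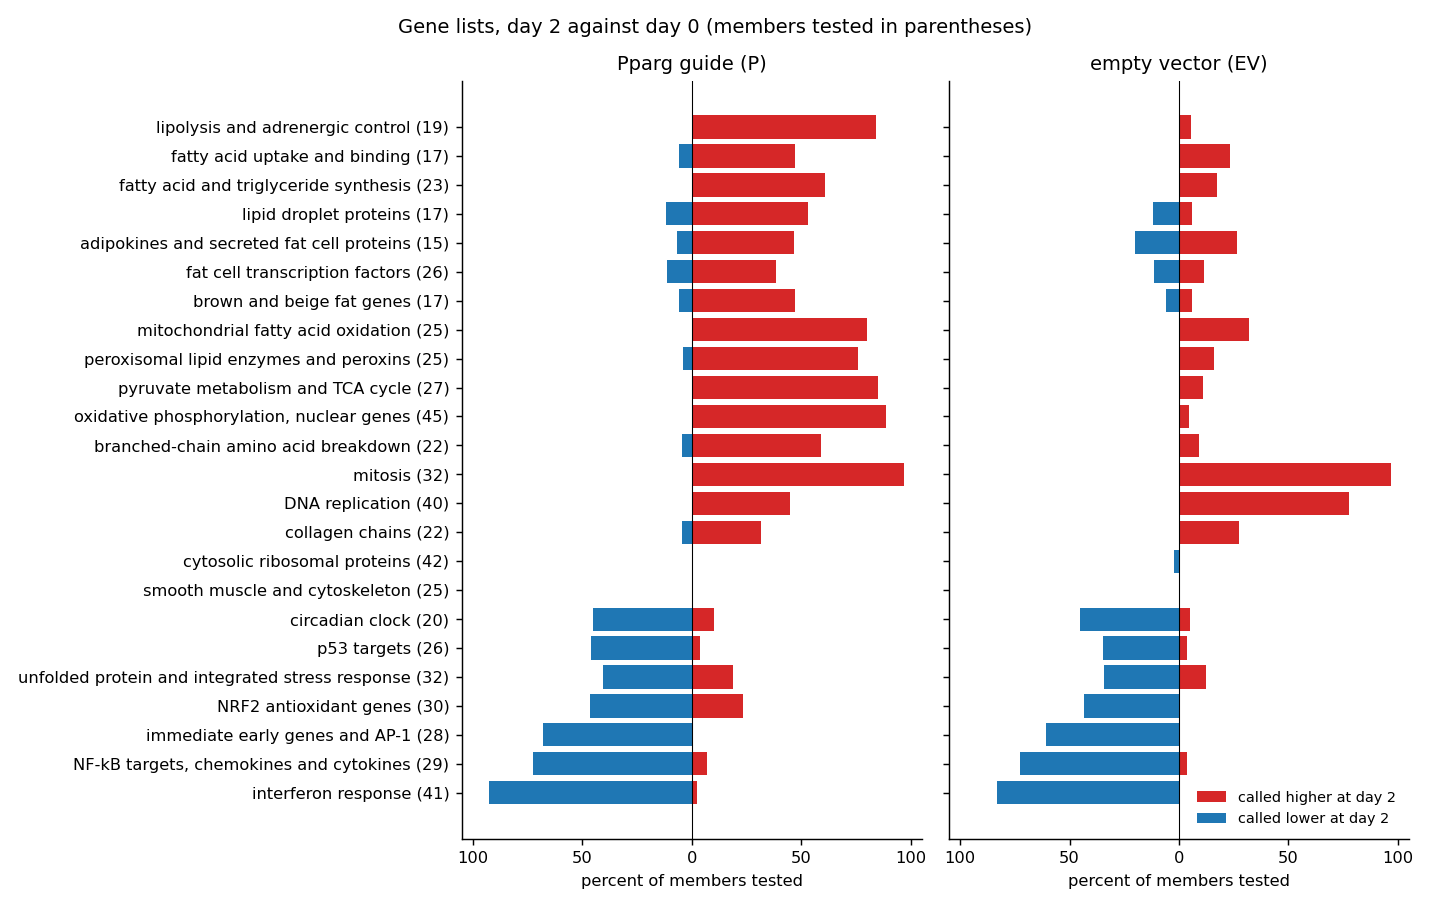
Bars give the percent of each list's tested members (number in parentheses) that passed higher (red, to the right) or lower (blue, to the left) at day 2 against day 0, in P on the left and EV on the right. Oxidative phosphorylation genes passed higher in 40 of 45 in P and 2 of 45 in EV, while mitosis passed higher in 31 of 32 in both, and interferon response passed lower in 38 of 41 in P and 34 of 41 in EV.

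Among the secreted proteins, Adipoq (ENSMUSG00000022878, chromosome 16, 23146536 to 23158028, plus strand), which encodes the hormone adiponectin, went from the edge of detection to a major transcript. It stood at 0.288, 0.573, 0.424, 0.0421 and 0.855 CPM at day 0 in experiments 1, 3, 4, 5 and 6, and at 185, 274, 27, 58.7, 1022 and 349 CPM at day 2 in experiments 1 to 6. The lowest day 2 library, experiment 3, was still above every day 0 library. The fitted change was log2 8.88 ± 0.96 (adjusted p = 1.23e-08), and log2 8.02 without experiment 5. In EV, Adipoq rose from 0.25 ± 0.263 CPM (n = 5) to 3.19 ± 2.3 (n = 6, adjusted p = 0.0214). Cfd, the protease adipsin, rose from 0.157 ± 0.122 to 9.19 ± 10.7 CPM (log2 5.14 ± 0.64, adjusted p = 1.39e-07, and 5.78 without experiment 4). Igf1, a growth factor, rose 6.35-fold in P (adjusted p = 1.14e-06) and its log2 change of 2.67 stood beside 2.71 in EV. Lep, which encodes leptin, had 0 counts in the day 0 libraries and 2 counts at day 2, too few to test.

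Fatty acid uptake and binding was led by Fabp4 (ENSMUSG00000062515, chromosome 3, 10204088 to 10208576, minus strand), a carrier of fatty acids in the cytosol. It stood at 88.3, 6.49, 260, 8.85 and 315 CPM at day 0, with experiments 3 and 5 far below the others, and at 1464, 3226, 1329, 2728, 4415 and 2492 CPM at day 2. Day 2 was above day 0 in each of the 5 pairs with no overlap, but the gain ran from 7.92-fold in experiment 6 to 499-fold in experiment 5. The fitted change was 22.9-fold (log2 4.52 ± 0.97, adjusted p = 0.00044), 14.1-fold without experiment 5 and 41.5-fold without experiment 6. Cd36, the fatty acid translocase, rose from 2.31 ± 2.52 to 350 ± 218 CPM (log2 6.99, adjusted p = 1.65e-06, and 6.32 without experiment 5 or 7.61 without experiment 6). Lpl, the lipase that frees fatty acids from lipoproteins, rose from 10.1 ± 7.09 to 504 ± 347 CPM (log2 5.41 ± 0.75, adjusted p = 9.07e-07, and 4.74 without experiment 5). Fabp5, a related carrier, rose 4.17-fold (adjusted p = 1.1e-05), and Angptl4, an inhibitor of lipoprotein lipase that PPARs induce, was at 479 ± 475 and 574 ± 160 CPM and did not pass (adjusted p = 0.827).

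Acsl1 (ENSMUSG00000018796, chromosome 8), which joins fatty acids to coenzyme A, had a narrow start and a wide end. Its day 0 level was 40.8, 57.9, 44.1, 51.3 and 61 CPM, and its day 2 level 807, 1758, 367, 303, 3347 and 1437 CPM. No day 2 library came near the day 0 range, and experiment 5 rose most, 65.2-fold, against 6.35-fold in experiment 3. The fitted rise was 20.8-fold (log2 4.38 ± 0.54, adjusted p = 1.39e-07).

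**Figure D3:**
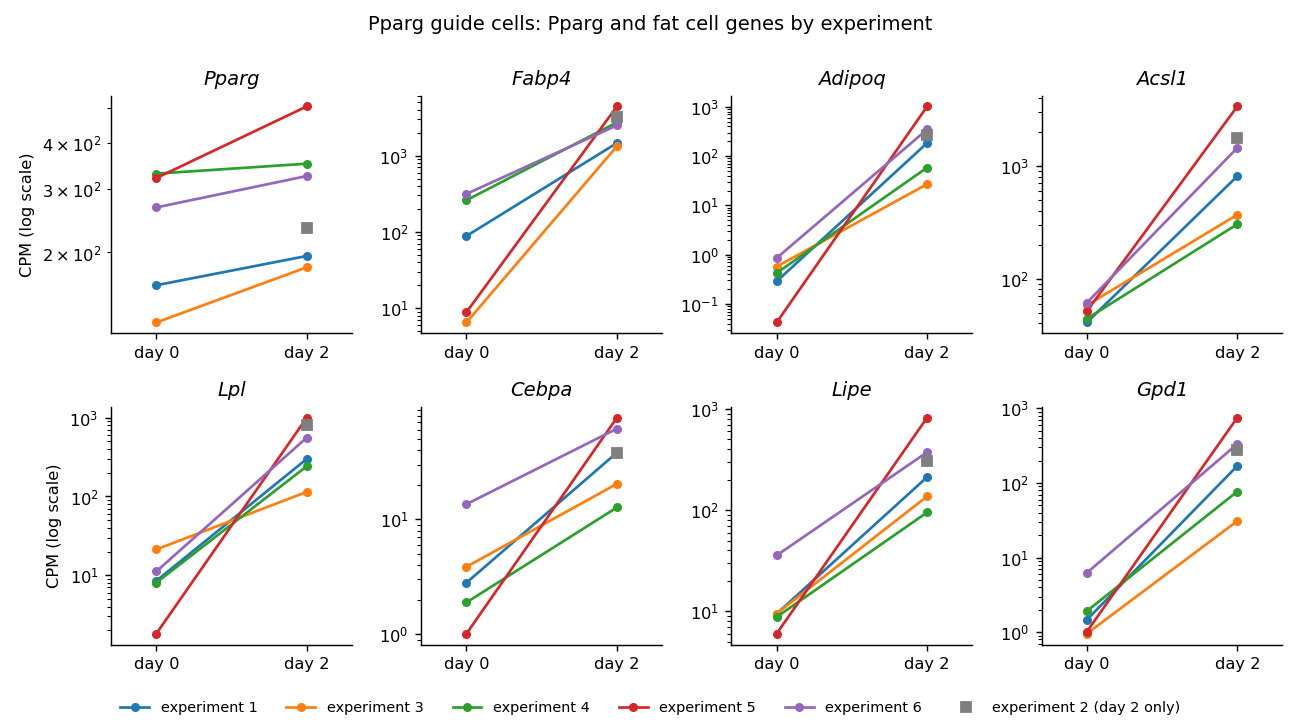
Each panel gives CPM on a log axis for 1 gene in P cells at day 0 and day 2, with 1 line per experiment and a lone point for experiment 2 at day 2. Adipoq, Fabp4, Lpl, Acsl1, Lipe and Gpd1 do not overlap between the days, Pparg and Cebpa do, and experiment 5 ends highest in all 8 panels.

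Lipid droplet proteins rose unequally, and 4 of the list passed as higher without experiment 5. Plin1, the perilipin that gates lipolysis on the droplet, had 0.0657, 0.0477, 0.149, 0 and 3.218 CPM at day 0 and 193, 285, 80.6, 94, 691 and 360 CPM at day 2 (log2 9.04 ± 0.92, adjusted p = 3.39e-09). Experiment 6 started well above the other experiments, and the log2 change was 11.10 without it and 8.42 without experiment 5. Cidec, which fuses droplets into larger ones, rose from 2.48 ± 2.86 to 305 ± 308 CPM (log2 6.57 ± 0.96, adjusted p = 2.37e-06, 7.34 without experiment 4 and 5.69 without experiment 5). G0s2, an inhibitor of the lipase ATGL, rose 16-fold (adjusted p = 2.13e-06, 10.1-fold without experiment 5), and Plin4 2.87-fold (adjusted p = 0.000989). Plin2, the droplet coat found in most cell types, was already at 991 ± 709 CPM and ended at 1009 ± 407 (adjusted p = 0.847). Hilpda, a lipid droplet protein induced by low oxygen, fell from 11 ± 1.64 to 7.29 ± 1.45 CPM (adjusted p = 0.00795), a call lost without experiment 6 and without the block (adjusted p = 0.0674).

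Lipolysis genes held the strongest list median. Lipe, hormone-sensitive lipase, was at 9.41, 9.45, 8.75, 5.98 and 35.6 CPM at day 0 and at 212, 304, 137, 95, 822 and 374 CPM at day 2 (21.1-fold, log2 4.40 ± 0.53, adjusted p = 7.46e-08, and 13.6-fold without experiment 5). The 2 days were separate by more than the highest day 0 value. Gpd1 (ENSMUSG00000023019, chromosome 15, 99717515 to 99725005), glycerol-3-phosphate dehydrogenase, which supplies the glycerol backbone of triglyceride, rose from 2.32 ± 2.22 to 273 ± 261 CPM (log2 6.55 ± 0.76, adjusted p = 4.72e-08, and 5.81 without experiment 5). The β3-adrenergic receptor gene Adrb3 had 6 counts over the 5 day 0 libraries and 1158 at day 2, with 0 CPM in experiment 3 on both days and 22 CPM in experiment 5 at day 2 (log2 7.15, adjusted p = 1.92e-08). Its log2 change was 6.34 without experiment 5, 6.48 without the day 0 library of that experiment and 6.49 without the day 2 library of experiment 1. Receptors that restrain lipolysis rose too, the lactate receptor Hcar1 by log2 6.45 ± 0.75 (adjusted p = 4.1e-08) and the ketone body receptor Hcar2 by log2 6.05 ± 0.64 (adjusted p = 7.5e-09). Without the block 14 of the 19 lipolysis genes passed. By experiment the median log2 change of the list was 2.47, 0.87, 1.85, 4.27 and 2.32 in experiments 1, 3, 4, 5 and 6.

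For triglyceride synthesis, Agpat2, the acyltransferase of the middle step, rose from 37 ± 18.2 to 358 ± 296 CPM (8.34-fold, adjusted p = 7.03e-06), and Dgat1, which makes the final bond, 4.05-fold (adjusted p = 1.11e-05). Pcx, pyruvate carboxylase, rose 7.47-fold from 95.7 ± 47.7 to 774 ± 515 CPM (adjusted p = 4.95e-06). Pck1, an enzyme on the path from pyruvate to glycerol phosphate in fat, had 8 counts over the 5 day 0 libraries and reached 1.72 to 30.4 CPM at day 2 (log2 8.01 ± 0.90, adjusted p = 2.48e-08, 9.22 without experiment 1 and 7.37 without experiment 5). Slc2a4, the insulin-regulated glucose transporter GLUT4, had 8 counts at day 0 and was at 3.45, 2.77, 0.432, 0.562, 17.6 and 7.19 CPM at day 2 (log2 6.47 ± 0.67, adjusted p = 6.49e-09, 7.41 without experiment 1 and 5.85 without experiment 5). Of 19 tested genes of insulin signalling and glucose uptake 8 rose and 1 fell, with 5 higher in a fit of the 11 P libraries alone. Pdk4, a brake on pyruvate use, did not pass (136 ± 74.2 and 141 ± 42.1 CPM, adjusted p = 0.975).

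Among 26 transcription factors of fat cell formation, 10 rose and 3 fell, with 5 higher and 1 lower in a fit of the P libraries alone. Cebpa was at 2.81, 3.87, 1.89, 1.01 and 13.6 CPM at day 0 and at 38.2, 37.9, 20.4, 12.7, 77 and 61.7 CPM at day 2. All 5 pairs rose, and the groups overlapped only because experiment 6 began at 13.6 CPM and experiment 4 ended at 12.7 (9.56-fold, log2 3.26 ± 0.48, adjusted p = 2.24e-06). Nr1h3, the liver X receptor LXRα, rose 6.44-fold (adjusted p = 5.87e-06). Abcg1, a cholesterol exporter that LXRs induce, rose from 0.0555 ± 0.056 to 2.6 ± 2.6 CPM (log2 4.65 ± 0.84, adjusted p = 5.15e-05, 5.37 without the day 0 library of experiment 1 and 3.99 without experiment 5). Klf4, which acts at the start of fat cell formation, fell from 167 ± 17.3 to 106 ± 25.9 CPM (adjusted p = 0.000605). Cebpb was at 29.9 ± 10.9 and 19.1 ± 2.72 CPM (adjusted p = 0.0696, and past the threshold as lower without the day 0 library of experiment 3 or of experiment 5), Cebpd at 38.1 ± 19.8 and 30.7 ± 13.3 (adjusted p = 0.582), and Klf15 at 1.75 ± 1.08 and 1.63 ± 0.72 (adjusted p = 0.887). Rxra, a partner of PPARG, was at 101 ± 18.3 and 128 ± 42.7 CPM (adjusted p = 0.145, and past the threshold without the day 0 library of experiment 3).

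Of 17 tested brown and beige fat genes 8 rose and 1 fell, with 3 higher in a fit of the 11 P libraries alone and 5 without experiment 5. Ppargc1b, a coactivator of mitochondrial genes, rose from 0.828 ± 0.473 to 12 ± 7.58 CPM (log2 3.60 ± 0.52, adjusted p = 1.7e-06, 2.93 without experiment 5). Prdm16, a regulator of brown fat identity, ran from 0.0249 to 0.253 CPM at day 0 and from 0.108 to 1.54 CPM at day 2 (6.15-fold, adjusted p = 0.000896). Cox8b, a respiratory subunit of brown fat and muscle, had 0 CPM in experiment 4 and 4.51 in experiment 5 at day 2 (log2 3.75 ± 0.79, adjusted p = 0.000511, 2.87 without experiment 5). Cidea, which brown fat places on its droplets, had a mean of 0.0149 ± 0.0223 CPM at day 0 and 0.108 ± 0.0915 at day 2 (adjusted p = 0.0361), and the call was lost without the block (adjusted p = 0.0598) and without any of several single libraries, such as the day 2 library of experiment 1. Ppargc1a did not pass (1.65 ± 2.54 and 3.78 ± 5.12 CPM, adjusted p = 0.616). Its level followed the experiment, at 6.06 and 7.99 CPM in experiment 3 and at 0.0503 and 0.249 CPM in experiment 6 on the 2 days. Ucp1, the uncoupling protein, had 20 counts over the day 0 libraries and 4 at day 2, and was left out by the filter on low counts.

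Among called genes at 1 CPM or more that rose in all 5 pairs, the largest rises were of genes close to silent at day 0. For some of them the ratio is known only within its counting error. Slc36a2, an amino acid transporter, had 3 counts over the 5 day 0 libraries and 2234 over the 6 day 2 libraries, a ratio of 1023 with a 95% interval of 349 to 4963 that covers counting error only. Sptlc3, a subunit of the enzyme that starts sphingolipid synthesis, had 1 and 677 counts (ratio 930, interval 166 to 36777). Ffar2, a receptor for short-chain fatty acids, had 2 and 793 counts (ratio 545, 150 to 4504), and Kcnk3, a potassium channel of brown fat, had 2 and 681 (ratio 468, 129 to 3869). Each of these 4 genes was higher in every day 2 library than in any day 0 library, where the choice already required a rise in each pair.

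Others in this group also had few counts over the 5 day 0 libraries, 22 for Lgals12, 20 for Car3, 9 for Mrap and 5 for Cyp4b1, so their fitted changes are imprecise. Lgals12, a galectin of fat cells, rose from 0.11 ± 0.075 to 49.7 ± 52.6 CPM (log2 8.22 ± 0.73, adjusted p = 3.85e-10, 7.48 without experiment 5). Car3, a carbonic anhydrase abundant in fat, rose from 0.0818 ± 0.0759 to 22.7 ± 23.7 CPM (log2 7.96 ± 0.80, adjusted p = 3.39e-09, 7.30 without experiment 5). Mrap, which helps the melanocortin 2 receptor reach the surface, rose by log2 6.61 ± 0.83 (adjusted p = 1.81e-07, 5.87 without experiment 5). Cyp4b1, a cytochrome P450, rose by log2 6.86 ± 0.78 (adjusted p = 3.33e-08).

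Many nuclear genes for burning fat and making ATP rose, by smaller folds. Of 25 tested genes of mitochondrial fatty acid oxidation 20 rose and 0 fell (median log2 0.97), of 27 of pyruvate metabolism and the TCA cycle 23 rose and 0 fell (0.68), and of 45 nuclear genes of oxidative phosphorylation 40 rose and 0 fell (0.54). Of 25 peroxisomal genes 19 rose and 1 fell (0.74), and of 22 genes of branched-chain amino acid breakdown 13 rose and 1 fell (0.53). EV passed 8 of 25, 3 of 27, 2 of 45, 4 of 25 and 2 of 22 of the same members as higher. Without experiment 5 the P counts were 16 of 45 for oxidative phosphorylation, 9 of 25 for peroxisomes and 6 of 22 for branched-chain amino acids. By experiment the median log2 change of the oxidative phosphorylation list was 0.44, 0.17, 0.40, 1.12 and 0.75 in experiments 1, 3, 4, 5 and 6, positive in each and most in experiment 5. Among 7 respiratory chain messenger RNAs encoded in mitochondria 1 passed as higher, although the list's median log2 change was 0.62. All 7 were higher at day 2 in experiments 1, 3, 5 and 6, by a median log2 of 0.69, 0.84, 0.85 and 1.17. In experiment 4, 6 of the 7 were lower at day 2 (median log2 -0.61). The count that passed was 0 without the block or without experiment 5 and 3 without experiment 4. Of 36 mitochondrial ribosomal proteins 3 rose and 4 fell, with 1 and 0 without the block, where 13.9% of all genes passed as higher and 14.7% as lower.

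In fatty acid oxidation, Acadm, medium-chain acyl-CoA dehydrogenase, stood at 49.2, 52.4, 25.5, 28.4 and 46.8 CPM at day 0 and at 137, 209, 108, 140, 413 and 189 CPM at day 2 (4.56-fold, log2 2.19 ± 0.32, adjusted p = 2.64e-06). The lowest day 2 library was above the highest at day 0. The later steps rose 3.28-fold for Hadh (adjusted p = 4.21e-07) and 3.16-fold for Acaa2 (adjusted p = 3.33e-07), and Ech1, an isomerase for unsaturated chains, 3.31-fold (adjusted p = 8.69e-07).

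Respiratory chain genes moved less. Atp5o, a subunit of ATP synthase, was at 93.9, 92, 91.8, 94.8 and 81.8 CPM at day 0 and at 159, 153, 128, 133, 287 and 178 CPM at day 2, a gain of 1.39-fold to 3.02-fold by experiment (1.86-fold fitted, adjusted p = 2.84e-05). Ndufb10 of complex I rose 1.84-fold (adjusted p = 0.000117) and Sdhc of complex II 1.61-fold (adjusted p = 4.23e-05). Atp5b, the catalytic ATP synthase subunit, rose 1.56-fold from 1189 ± 217 to 1871 ± 683 CPM (adjusted p = 0.00433, and not past the threshold without experiment 5). Of the TCA cycle and its feeders, Idh1, the cytosolic isocitrate dehydrogenase, rose 3.95-fold (adjusted p = 2.04e-05). In peroxisomes the thiolase Acaa1b rose 11.4-fold (adjusted p = 1.21e-06) and catalase, Cat, 1.83-fold (adjusted p = 0.00339, lost without experiment 5). Aldh6a1 and Bckdhb, of valine and branched-chain ketoacid breakdown, rose 3.81-fold and 3.09-fold (adjusted p = 4.87e-06 and adjusted p = 1.7e-05). Bnip3, a mitophagy receptor, rose 2.28-fold (adjusted p = 0.000421).

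The cells also held more RNA of cell division genes. Of 32 mitosis genes 31 rose and 0 fell, with a median log2 change of 0.95, and of 40 DNA replication genes 18 rose and 0 fell (median 0.37). EV passed 31 of 32 and 31 of 40 of them as higher, with medians of 1.25 and 0.60, and 0 members of either list passed in the test of P against EV. The mitosis list was positive in every paired experiment, by a median of 1.08, 0.90, 0.63, 0.45 and 1.08 in experiments 1, 3, 4, 5 and 6. Without the block 13 mitosis and 3 replication genes passed in P.

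Ube2c, the ubiquitin-conjugating enzyme of the anaphase-promoting complex, rose from 27.6, 35.8, 44.4, 24.4 and 28.4 CPM to 57.9, 44, 74.5, 77.9, 45.4 and 59.6 CPM. Each pair rose, though the day 2 library of experiment 2 lay just under the highest at day 0 (2.01-fold, adjusted p = 5.33e-05). The mitotic kinase Plk1 rose 2.16-fold (adjusted p = 5e-05), the kinesin Kif20a 2.02-fold (adjusted p = 7.35e-05), the spindle protein Nusap1 2.15-fold (adjusted p = 2.02e-05) and the proliferation marker Mki67 from 129 ± 49 to 265 ± 101 CPM (adjusted p = 0.000301). Of the genes that act earlier in the cycle, Tk1, thymidine kinase, rose 1.95-fold and Ccne1, cyclin E1, 1.66-fold (adjusted p = 0.000177 and adjusted p = 0.000327).

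Mitosis genes are known to carry the CHR element in their promoters, so the deposited changes were read beside RefSeq promoter sequence (build GRCm38.p6, 250 bases before to 50 after each gene's start). Such a promoter was found for 11231 of the 17015 genes tested. The letters TTTGAA, searched on both strands, were in 20 of 27 mitosis promoters (74.1%) and in 14.7% of all promoters, and in 18.2% of the promoters of DNA replication genes. They were in 18.2% of the promoters of genes called higher and 14.2% of those called lower. For changes of at least 4-fold the shares were 15.8% for genes called higher and 22.5% for genes called lower. The stretch before the Ube2c start, chr2:164769870-164769928 on the plus strand, is shown with the match in capitals, 29 to 24 bases before the start. A match is a description of the letters and not a measured site.
Ube2c: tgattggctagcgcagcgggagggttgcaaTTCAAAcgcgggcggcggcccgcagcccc

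The interferon response fell. Of 41 tested genes 38 were lower and 1 was higher at day 2, with a median log2 change of -1.09. EV passed 34 as lower and 0 as higher, with a median of -0.91, and 0 members passed in the test of P against EV. Within P, 40, 40, 32, 40 and 40 of the 41 genes were lower at day 2 in experiments 1, 3, 4, 5 and 6, by a median of -1.35, -0.73, -0.42, -1.82 and -1.41. Without the block 20 passed as lower. The summed level of the 18 macrophage markers also fell, as given above, and Mpeg1, a macrophage gene that interferon also induces, went from 22.8 ± 17.9 to 2.87 ± 1.7 CPM (7.46-fold lower, adjusted p = 5.3e-06, and 11.8-fold without experiment 4), although it was higher at day 2 in experiment 4. Of the 8 macrophage markers tested 2 were lower and 0 higher, with 1 lower without the block, where 14.7% of all genes passed as lower. The part of these markers in the result was not tested.

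Many of these genes share promoter letters. The ISRE core GAAANNGAAA, on either strand, was in 18 of 31 interferon list promoters (58.1%) against 3.82% of all 11231. It was in 7.23% of the promoters of genes called lower, 22.5% of those called lower by at least 4-fold and 2.82% of those called higher. The promoters of 4 strong fallers are shown up to the start site or part of the way to it, with matches in capitals. They are Ifit1 (chr19:34640755-34640843, plus strand, matches from 104 to 76 bases before the start), Ifit3 (chr19:34583343-34583446, plus strand, 156 to 113), Ifit3b (chr19:34607739-34607842, plus strand, 188 to 145) and Cxcl10 (chr5:92349063-92349132, minus strand, 213 to 204).
Ifit1: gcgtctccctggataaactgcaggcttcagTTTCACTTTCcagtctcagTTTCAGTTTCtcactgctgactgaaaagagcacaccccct
Ifit3: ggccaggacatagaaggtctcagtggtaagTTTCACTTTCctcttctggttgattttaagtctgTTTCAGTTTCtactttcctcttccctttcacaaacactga
Ifit3b: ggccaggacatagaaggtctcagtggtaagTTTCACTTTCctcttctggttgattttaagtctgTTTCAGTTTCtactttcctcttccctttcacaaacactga
Cxcl10: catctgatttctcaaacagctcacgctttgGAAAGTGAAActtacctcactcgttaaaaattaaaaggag
The stretches of Ifit3 and Ifit3b are identical over 104 bases. These genes are near copies, and how reads that match both were counted is not given in the sources used here, so their separate values are uncertain.

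The RNA of interferon genes themselves fell. Ifnb1 (ENSMUSG00000048806, chromosome 4, 88522025 to 88522774, minus strand), interferon β, was at 30.7, 6.35, 81.3, 61.4 and 24.3 CPM at day 0 and at 1.29, 1.49, 3.89, 17.9, 1.67 and 0.997 CPM at day 2. Every pair fell, but experiment 3 began at 6.35 CPM, below the 17.9 CPM that experiment 4 kept at day 2, so the groups overlapped (13.5-fold lower, log2 -3.76 ± 0.56, adjusted p = 3.14e-06). Ifna4, an interferon α gene, fell from 8.39 ± 6.12 to 0.959 ± 1.86 CPM (14.9-fold lower, adjusted p = 5.94e-06, and 35.4-fold without experiment 4).

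Of their targets, Ifit1 (ENSMUSG00000034459, chromosome 19), which binds foreign RNA, was among the most abundant RNAs to fall. It went from 2273, 3556, 1974, 3537 and 1925 CPM to 528, 1370, 1521, 1428, 489 and 351 CPM, with no overlap (3.39-fold lower, log2 -1.76 ± 0.28, adjusted p = 7.61e-06). Experiment 4 fell least among the pairs, to 0.723 of its day 0 level. Ifit2 was 5.43-fold lower (adjusted p = 5.33e-06), and Ifit3 and Ifit3b 4.90-fold and 4.86-fold lower. Ifit1bl1, a relative of Ifit1, was 16-fold lower (adjusted p = 3.66e-06) and spread from 24.2 to 779 CPM at day 0. Cxcl10, a chemokine that draws T cells, fell from 108 ± 45.8 to 20.8 ± 19.6 CPM (7.42-fold lower, adjusted p = 7.88e-06). Irf9, the DNA-binding part of the ISGF3 complex, was 1.88-fold lower with no overlap (adjusted p = 7.35e-07). The antiviral ubiquitin ligase Rnf213 was 2.71-fold lower and Tor3a, an interferon-induced torsin, 2.76-fold lower (adjusted p = 0.000117 and adjusted p = 3.15e-07). The list's single riser was Ifi27, a mitochondrial protein that interferon induces, at 46.3 ± 22.2 and 96.6 ± 40.3 CPM (adjusted p = 0.00438), lower in experiment 4 and not past the threshold without experiment 5.

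**Figure D4:**
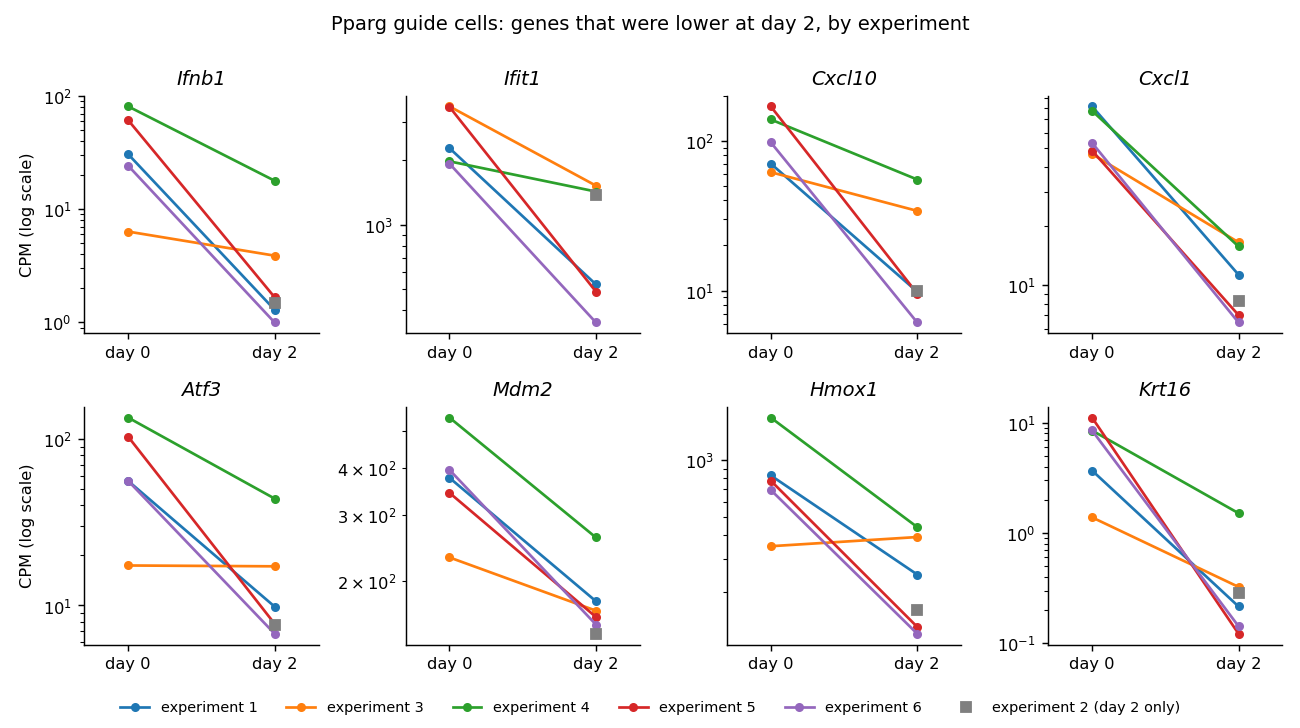
Each panel gives CPM on a log axis for 1 gene in P cells at day 0 and day 2, with 1 line per experiment and a lone point for experiment 2 at day 2. Ifit1, Cxcl10 and Cxcl1 fall without overlap, while Ifnb1 and Atf3 stay highest at day 2 in experiment 4 and start lowest in experiment 3, where Atf3 hardly moves.

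Inflammatory and stress genes fell alongside. Of 29 tested NF-κB targets, chemokines and cytokines 21 were lower and 2 higher (median log2 -1.18), and of 28 immediate early and AP-1 genes 19 were lower and 0 higher (median -0.94). Of 26 p53 targets 12 were lower and 1 higher, of 30 NRF2 antioxidant genes 14 were lower and 7 higher, and of 32 genes of the unfolded protein and integrated stress responses 13 were lower and 6 higher. EV passed 21, 17, 9, 13 and 11 members of these lists as lower, and 0 members of any of them passed in the test of P against EV. Without the block 17, 11, 10, 9 and 6 members were lower in P, and the 6 higher genes of the stress response list became 1, as they did without experiment 6. By experiment the immediate early list changed by a median log2 of -0.84, -0.03, -0.57, -1.44 and -1.06 in experiments 1, 3, 4, 5 and 6, so it hardly moved in experiment 3.

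Cxcl1, a chemokine for neutrophils, was at 81.6, 46.6, 77.5, 48.5 and 53.1 CPM at day 0 and at 11.3, 8.3, 16.5, 15.7, 7.03 and 6.45 CPM at day 2. The 2 days were well apart in every experiment (5.67-fold lower, log2 -2.50 ± 0.24, adjusted p = 1.24e-09). The cytokine Il6 was 4.84-fold lower (adjusted p = 2.94e-07), Ccl5 7.36-fold (adjusted p = 5.3e-06) and Csf2, a myeloid growth factor, 9.10-fold (adjusted p = 1.14e-05). Ccl4 was 10.4-fold lower (adjusted p = 1.98e-06), and 19.6-fold without experiment 4. Nfkbia, the NF-κB inhibitor that NF-κB itself induces, fell from 129 ± 27.5 to 52.3 ± 8.85 CPM (2.39-fold lower, adjusted p = 5.51e-08), and Birc3, an inhibitor of cell death, was 1.87-fold lower (adjusted p = 3.15e-07).

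Among stress factors, Atf3 was at 55.9, 17.4, 134, 103 and 56 CPM at day 0 and at 9.84, 7.66, 17.2, 43.8, 7.76 and 6.77 CPM at day 2 (5.50-fold lower, adjusted p = 1.46e-05). Experiment 3 was at 17.4 and 17.2 CPM, and the groups overlapped. Ppp1r15a, which reverses the block on translation during stress, was 4.45-fold lower (adjusted p = 7.46e-08), Trib3 3.50-fold (adjusted p = 2.08e-05) and Atf4 1.83-fold (adjusted p = 4.39e-05). The AP-1 parts Fos and Fosb were 2.93-fold and 4.34-fold lower (adjusted p = 4.08e-05 and adjusted p = 8.4e-06). Of the p53 targets, Mdm2, the ligase that degrades p53, fell from 378 ± 113 to 177 ± 42.6 CPM (adjusted p = 1.22e-07). Cdkn1a, the cell cycle inhibitor p21, was 1.86-fold lower (adjusted p = 2.38e-05), Gadd45a 3.17-fold (adjusted p = 4.08e-06) and Plk2 2.53-fold (adjusted p = 0.000105).

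The NRF2 list held changes in both directions. Hmox1, heme oxygenase, fell from 867 ± 490 to 250 ± 139 CPM (3.77-fold lower, adjusted p = 1.71e-05), although it went from 351 to 392 CPM in experiment 3. Sqstm1, the autophagy receptor p62, fell from 1771 ± 456 to 742 ± 152 CPM (2.35-fold lower, adjusted p = 2.28e-06) with no overlap. Gclc, which starts glutathione synthesis, and Txnrd1, thioredoxin reductase, were 2.10-fold and 1.99-fold lower (adjusted p = 3.94e-05 and adjusted p = 0.000103). Mgst1, a membrane glutathione transferase, rose from 24.6 ± 15.3 to 182 ± 119 CPM (6.95-fold, adjusted p = 1.18e-05) with no overlap. Without experiment 5, 3 of the list's members passed as higher in place of 7.

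Krt16, a keratin of stressed epithelia, was the largest faller at 1 CPM or more, from 3.68, 1.38, 8.5, 11.1 and 8.5 CPM to 0.215, 0.284, 0.324, 1.51, 0.122 and 0.142 CPM (20-fold lower, log2 -4.32 ± 0.60, adjusted p = 9.83e-07, and 34.1-fold without experiment 4). That choice required each pair to fall, and experiment 4 at day 2 still stood above experiment 3 at day 0. In EV it fell 22.5-fold. Of 10 epithelial markers tested 2 rose and 2 fell, where 13.9% of all genes passed as higher and 14.7% as lower. Without the block 0 of them passed in either direction. In a fit of the 11 P libraries alone 1 was higher and 0 were lower.

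Matrix and lineage genes changed in a few members, where over all genes tested 13.9% passed as higher and 14.7% as lower. Of 22 collagen chains 7 rose and 1 fell (median log2 0.31), with 4 higher without the block, 11 higher without experiment 3 and 0 lower in a fit of the P libraries alone. The collagen VI chains Col6a1, Col6a2 and Col6a3 rose 2.77-fold, 3.31-fold and 5.42-fold (adjusted p = 1.96e-05, adjusted p = 2.02e-06 and adjusted p = 1.73e-06), in EV too by 2.12-fold, 2.14-fold and 2.43-fold. Col15a1, a basement membrane collagen, rose from 3.98 ± 2.08 to 79.6 ± 57.6 CPM (16-fold, adjusted p = 1.47e-06, 10.1-fold without experiment 5). Col1a1 and Col1a2 did not pass (adjusted p = 0.911 and adjusted p = 0.0565), and Col1a2 passed as higher without experiment 2 or without experiment 3. Of 22 preadipocyte and progenitor markers 3 rose and 5 fell, and 0 were lower without experiment 5 or in a fit of the P libraries alone. Among them, Pdgfra was at 90.3 ± 71 and 120 ± 51.2 CPM (adjusted p = 0.0595). Its day 0 levels of 152 and 180 CPM in experiments 1 and 3 stood apart from 29.6, 30.5 and 59.2 CPM in the others, and it passed as higher without experiment 1 or without experiment 3. Ly6a, the stem cell antigen Sca-1 and also an interferon-induced gene, fell from 770 ± 378 to 344 ± 75.5 CPM (adjusted p = 0.0132) but rose in experiment 4, and did not pass without experiment 3, 5 or 6 or without the day 0 library of experiment 6. Dlk1, a preadipocyte marker, was at 0.225 ± 0.168 and 0.286 ± 0.229 CPM (adjusted p = 0.634). Of 25 smooth muscle and cytoskeleton genes and of 42 cytosolic ribosomal proteins 0 passed in edgeR. Acta2, smooth muscle actin, ran from 887 to 4303 CPM at day 0 and from 351 to 3688 CPM at day 2 (adjusted p = 0.936).

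Of 20 clock genes 9 were lower and 2 higher, with Ciart, a repressor of the clock, 3.07-fold lower and Nr1d2, the repressor REV-ERBβ, 1.43-fold lower, both without overlap (adjusted p = 4.61e-05 and adjusted p = 8.37e-05). EV also passed 9 of the 20 as lower. Of 31 Wnt pathway genes 5 rose and 2 fell, with 2 higher and 1 lower without the block and 8 higher without experiment 3. Over all genes tested 13.9% passed as higher and 14.7% as lower, so the 5 Wnt genes that rose are close to the overall share. Axin2, a Wnt feedback gene, rose 4.53-fold (adjusted p = 0.00123, 2.94-fold without experiment 5), and Alpl, alkaline phosphatase, rose from 0.266 ± 0.184 to 4.19 ± 2.98 CPM (12.1-fold, adjusted p = 1.16e-05). Of 10 endothelial markers tested 4 fell and 1 rose, but 0 were lower in a fit of the 11 P libraries alone and 2 without the block, without experiment 4 or without experiment 5. Pecam1 among them was at 1.36 ± 1.75 and 0.26 ± 0.133 CPM (adjusted p = 0.0115), a call lost without experiment 1 or 4, and without the day 0 or the day 2 library of experiment 4.

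Whether the change from day 0 to day 2 differed between P and EV was tested in the same edgeR fit. Differences between P and EV already present at day 0 do not enter this test, so it does not measure the whole difference between the groups. Of 17015 genes 16 passed (0.094%), all with the larger rise in P. Before adjustment 946 genes were under 0.05, 679 with the higher and 267 with the lower change in P. The count rests on few libraries: it was 0 without experiment 1, 1 without the EV day 0 library of that experiment and 30 without the P day 2 library of experiment 3. DESeq2 passed 92 genes and the fit without the block 10. The 2 comparisons shared many genes: 1053 rose in both, 44.5% of those that rose in P and 60.4% of those in EV, and 1605 fell in both, 64.3% and 80.1%. Another 3 genes rose in P and fell in EV.

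Of the 16 genes, 4 belong to the lists for lipolysis or triglyceride synthesis: Gpd1, Lipe, Agpat2 and Sort1, the sorting receptor sortilin. Gpd1 rose by log2 6.55 in P and stood at 1.52 and 2.74 CPM in EV, a difference in change of log2 6.01 ± 1.01 (adjusted p = 0.00399). For Lipe, with 6.52 and 10.4 CPM in EV, the difference was log2 3.87 ± 0.68 (adjusted p = 0.00399), for Agpat2, with 25.1 and 25.6, log2 3.08 ± 0.64 (adjusted p = 0.0299), and for Sort1 log2 4.01 ± 0.76 (adjusted p = 0.00954). Acsl1 was at 40.1 to 52.6 CPM in EV at day 0 and 59.6 to 76.7 at day 2, and its difference was log2 3.90 ± 0.67 (adjusted p = 0.00399). Cfd (log2 7.25 ± 1.51, adjusted p = 0.0311) and the peroxisomal thiolase Acaa1b (log2 3.37 ± 0.69, adjusted p = 0.0299) passed too. So did Nat8l, which makes N-acetylaspartate and is high in brown fat (log2 5.33 ± 1.05, adjusted p = 0.0178). In EV, Cfd had means of 0.199 CPM at day 0 and 0.0667 at day 2. Its fitted change there, log2 -2.10, did not pass (adjusted p = 0.246) and adds to the difference. Without the block the Cfd difference did not pass (adjusted p = 0.28).

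Also among the 16 were Rgcc (log2 3.99), a cell cycle regulator, Gm9899 (6.73), annotated as a processed transcript, Sh2b2 (2.72), an adaptor of the insulin receptor, Fam213a (4.00), Il2ra (5.51), the interleukin 2 receptor α chain, Hs6st1 (0.79), a heparan sulfate sulfotransferase, and Ffar4. Ffar4, a receptor for long-chain fatty acids, had 0 counts in all 5 day 0 libraries of P and 50 counts over the 6 at day 2. Against a floor of 3 counts over the day 0 group it was at least 22.9-fold higher. It was also at 0 in all EV libraries of day 2, so no fold is given for the difference. Its mean in EV at day 0 was only 0.0825 CPM. The fitted fall there, log2 -4.74, passed (adjusted p = 0.0156) and adds to the difference. Gm9899 had 3 counts at day 0 in P and 88 at day 2, a ratio of 40.3 with a counting interval of 13.3 to 199. In EV, Gm9899 had means of 0.0561 CPM at day 0 and 0.00434 at day 2. Its fitted change there, log2 -2.16, did not pass (adjusted p = 0.0799) and adds to the difference. As for Cfd, the difference did not pass without the block for Sh2b2 (adjusted p = 0.16), Fam213a (adjusted p = 0.112), Il2ra (adjusted p = 0.175) and Hs6st1 (adjusted p = 0.16).

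Other fat cell genes that rose in P did not pass this test, and a difference of their change from that in EV is not established. Adipoq changed by log2 5.46 ± 1.82 more in P (adjusted p = 0.467), Lpl by 3.85 ± 0.92 (adjusted p = 0.0939), Cebpa by 2.93 ± 0.68 (adjusted p = 0.0726) and Fabp4 by 0.93 ± 1.19 (adjusted p = 1), the last having risen from 6.13 to 77.1 CPM in EV. On both days every P library, at the levels given above, held more Fabp4 than these EV values. A difference in change leaves out what already differed at day 0. Of the oxidative phosphorylation, fatty acid oxidation and TCA cycle lists 0 members passed in edgeR. The falling genes lay close to equal change: the difference was log2 -0.25 ± 0.39 for Ifit1, -0.51 ± 0.76 for Ifnb1 and -0.21 ± 0.33 for Cxcl1 (adjusted p = 1 each). These intervals still allow sizeable differences, so equal change is not shown.

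**Figure D5:**
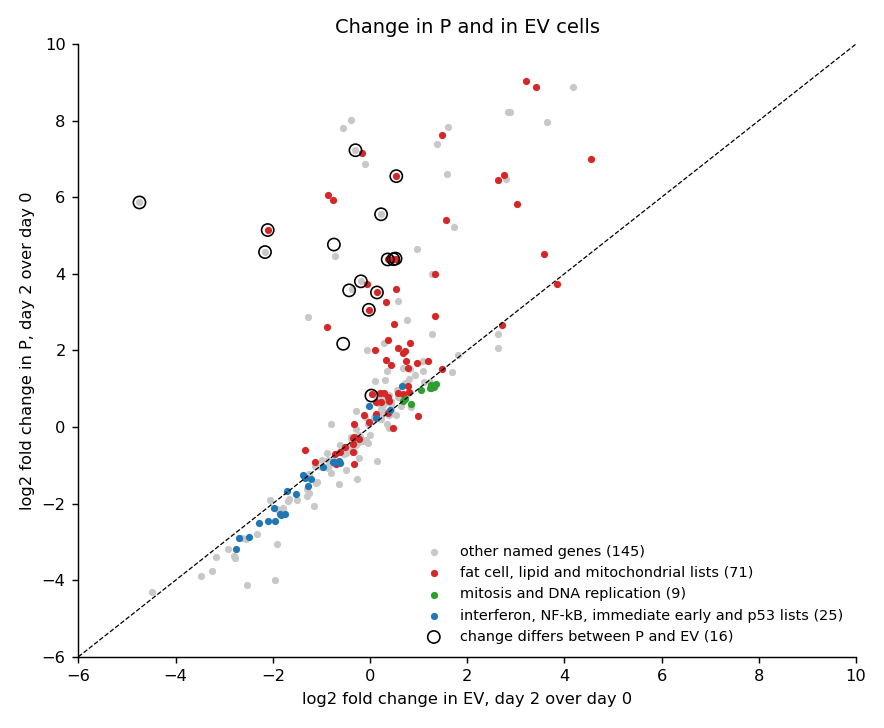
Each point is a named gene, with its fitted log2 fold change of day 2 over day 0 in EV on the x axis and in P on the y axis, and the dashed line marks equal change. Falling interferon and inflammatory genes (blue) and mitosis genes (green) lie along the line, many fat and mitochondrial genes (red) lie above it, and circles mark the 16 genes whose change differed.

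Adding the Ybx1 guide did not give a detectable change of this time course. PY cells passed 2939 genes as higher and 3111 as lower at day 2 against their own day 0. The test of whether PY and P changed differently passed 0 genes (0%) in edgeR and 0 in DESeq2, with 268 genes under 0.05 before adjustment. Side by side, the log2 change was 7.98 in PY and 8.88 in P for Adipoq, 4.77 and 4.38 for Acsl1, -2.03 and -1.76 for Ifit1 and 1.07 and 1.05 for Mki67. A p that misses the threshold does not show that the 2 time courses were the same.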

How the data were processed

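The deposited table holds raw counts per Ensembl gene, made by the authors with STAR 2.5.3a and featureCounts 1.5.2 on mm10 (GRCm38), with edgeR 3.22.0 also named, per the submitters' processing notes. The strand setting and the treatment of multi-mapping reads are not given in the sources used here, so overlapping genes and near copies are uncertain. Libraries were made with a stranded total RNA kit after removal of ribosomal RNA, per the labels' protocols. Of 53801 identifiers 53620 were matched to symbols with GENCODE M21, and 2 list entries (Aldoa, Ddit3) matched none.

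All 51 libraries were fitted together in edgeR 4.0.16 (limma 3.58.1, R 4.3.3) with 9 group means and the experiment as a block, after filterByExpr, which kept 17015 genes, and TMM scaling. Quasi-likelihood F tests were two-sided, and adjusted p-values are Benjamini-Hochberg over all genes tested. The SE is the log2 change divided by the square root of F. Levels are CPM on effective library sizes. DESeq2 1.42.0 was an alternative. The block follows the experiment number in the labels: deviations from the group means correlated by 0.205 to 0.529 in the 5 pairs that share an experiment, against a median of -0.130 in 25 other pairs. The fits were tested on simulated counts. The named genes are Pparg and Ybx1, the 15 largest rises and falls among called genes at 1 CPM or more with 1 direction in 5 of 5 experiments, the 8 largest of each by CPM, up to 4 called members per list and direction by smallest p, a set list of fat cell and lineage genes, and up to 8 genes per direction whose change differed from EV. The comparison, the 42 lists and these rules were chosen with earlier results of these data known. Which of these genes the text describes was chosen after their values were seen, and Sh2b2, Fam213a, Il2ra and Hs6st1 fall outside the rule. Some items are not reported here.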

Additional observations from a re-analysis of the deposited data

Results flagged for a closer look

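In 40 of 268 checks, the highest or lowest library of a P group lay far from the rest of its group, by its gap to the nearest library over the group's range. For normally distributed values such a gap comes up in about 1 in 20 groups. The CPM values were not shown to be normal, so the 40 flags are not set against that rate. Sptlc3 at day 0 and Lep at day 2 were at 0 in all other libraries of the group, so a few reads fixed their flags. Kcnk3 had 2 counts over the day 0 group, with 3 libraries at 0, so its day 0 flag also rests on a few reads. Genes that move together are not separate evidence, and no cause was tested.

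At day 2, experiment 5 was the high library in 18 cases. For fat cell genes its levels were 1022 CPM for Adipoq (next 349), 34.3 for Nr1h3, 922 for Agpat2, 149 for Lgals12, 68.4 for Car3, 15.1 for Kcnk3, 10.5 for Cyp4b1 and 0.0813 for Lep. For oxidation and energy genes they were 605 CPM for Idh1, 218 for Acaa2, 413 for Acadm, 288 for Ech1, 158 for Hadh, 140 for Acaa1b, 666 for Cat, 287 for Atp5o, 124 for Sdhc and 57.4 for Bnip3.

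At day 2, experiment 4 was the high library for 8 genes that fell. It held 17.9 CPM of Ifnb1 (next 3.89), 4.74 of Ifna4, 9.42 of Il6, 3.69 of Ccl4, 43.8 of Atf3, 8.82 of Fosb, 261 of Mdm2 and 1.51 of Krt16. Experiment 2 was low for Birc3, at 9.37 CPM.

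At day 0, experiment 6 was high for Plin1 (3.218 CPM, next 0.149), Cebpa (13.6), Lipe (35.6), Gpd1 (6.24), Dgat1 (27.3) and Kcnk3 (0.0503), and low for Atp5o (81.8). Experiment 3 was high for Nr1h3 (2.01 CPM) and Ppargc1a (6.06), and experiment 5 for Ifit2 (1248) and Ifit1bl1 (779). Experiment 1 had the largest total, 114.6 M counts (next 42.5 M), and 0.00822 CPM of Sptlc3.

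The change differed between P and EV, in edgeR with the experiment block, for 16 genes. The differences in log2 change of the 15 given here were 6.01 for Gpd1, 3.90 for Acsl1, 3.99 for Rgcc, 6.73 for Gm9899, 3.87 for Lipe, 10.61 for Ffar4, 4.01 for Sort1, 5.33 for Nat8l, 3.37 for Acaa1b, 3.08 for Agpat2, 7.25 for Cfd, 2.72 for Sh2b2, 4.00 for Fam213a, 5.51 for Il2ra and 0.79 for Hs6st1. The value for Ffar4 is a fitted one, with P at 0 at day 0 and EV at 0 at day 2, and is no fold. The fitted fall of Ffar4 in EV adds to it.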

How the results depend on the processing

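The 4866 genes called in P became 2377 with no replicate block, 3132 in a fit of the 11 P libraries alone, 3067 with the 10 paired libraries alone and 1188 with a fold of at least 2, and ranged from 2880 to 5258 when a library or an experiment was left out. Genes higher numbered 1190, 1565, 1557 and 716 in these settings (1266 to 2682 with leave-outs) and genes lower 1187, 1567, 1510 and 472 (1614 to 2609). Other scalings, filters and DESeq2 gave 3781 to 5261 calls, and without scaling factors 43.7% of calls were higher in place of 48.7%. The 16 genes whose change differed from EV became 10 with no replicate block, 65 with no filter and 92 by DESeq2, and 0 to 30 with leave-outs. EV's own 3746 calls became 1241 with no replicate block and 2348 to 3984 with leave-outs.

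The sign changed for Klf15 with no replicate block (-0.066), Pdk4 with no block (0.048), the 11 libraries (0.039) and the 10 (0.047), Col1a1 with the 11 (0.023) and the 10 (0.032), and Acta2 with no block (-0.018). With leave-outs the log2 change ran from -0.18 to 0.51 for Plin2, -0.42 to 0.082 for Cebpd, -0.20 to 0.43 for Klf15, -0.29 to 0.22 for Pdk4, -0.32 to 1.20 for Angptl4, -0.15 to 0.12 for Col1a1 and -0.15 to 0.36 for Acta2. None of these genes was called, and the cause was not tested. Of 4096 values of single genes, 3847 kept direction and side of the threshold. Leaving out single PY libraries was not run. Counts under about 10 over a group limit the genes scarce at day 0.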
